A study of Mus musculus with 3 samples.

Results

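The Ifitm family members Ifitm1, Ifitm2, Ifitm3 and Ifitm6 were followed through CD45+ cells of the mouse pancreas, 4 of the 31053 genes in the deposited matrices. The 4 were chosen by name from results of these same data, from the levels of Ifitm1 in conventional dendritic cells (cDCs) and of Ifitm3 in T cells at 7 days, which had been singled out as rising most. Those values are therefore given as a description, and nothing is tested with them. In the classes used here the 7-day log2 ratio of Ifitm3 was larger in plasmacytoid DCs (3.65), γδ T cells (3.30) and erythroid cells (2.91) than in T cells (2.40). The deposited features also held Ifitm5, Ifitm7 and Ifitm10, which were not members. Ifitm5 had 11, 21 and 44 UMIs in the cells of the PBS, 3-day WGP and 7-day WGP libraries, Ifitm7 had 0, 1 and 0, and Ifitm10 had 179, 379 and 297.

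The study asked how WGP, a particulate β-glucan from yeast given by intraperitoneal injection, alters the immune cells of the pancreas. Live CD45+ cells were sorted from pancreata of wild-type C57BL/6J mice treated with PBS, or with WGP 3 or 7 days earlier, and each group was carried through droplet-based 3' scRNA-Seq as 1 library. Neither the sex nor the number of mice behind a library is given by the labels, and no group has a replicate. No test between groups was therefore possible, and each ratio below carries a 95% interval for the counting of UMIs (unique molecular identifiers, each standing for 1 captured RNA molecule) in those libraries, with no account of variation between mice.

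IFITM proteins are small membrane proteins induced by interferons that hinder the fusion of enveloped viruses with the membranes of the cell. IFITM1 is found mainly at the cell surface, whereas IFITM2 and IFITM3 are found mainly on endosomes and lysosomes, where IFITM3 holds back viruses that enter by endocytosis, such as influenza virus. Type I interferons act mainly at interferon-stimulated response elements in the promoters of their target genes, and interferon-γ acts mainly at gamma-activated sites. Many myeloid cells carry Ifitm transcripts without infection.

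The 4 genes lie in 1 cluster on chromosome 7 of GRCm38 (mm10) that spans 63088 bases from the start of the first to the end of the last. In the GENCODE M21 annotation, Ifitm2 lies at chr7:140954837-140955987 on the minus strand, Ifitm1 at chr7:140967221-140969825 on the plus strand, Ifitm3 at chr7:141009586-141010770 on the minus strand, and Ifitm6 at chr7:141015699-141017924 on the minus strand. Within the last 100 bases of their transcripts, the stretch nearest to where a 3' library is primed, each member differed from every other member by at least 27 edits. Farther from the 3' end, Ifitm1 and Ifitm3 transcripts had 31 windows of 100 bases that came within 5 edits of each other. The exons of Ifitm2 share 268 of 655 bases (40.9%) with Gm45717, an annotated gene on the same strand, but 0 of the last 100 bases of Ifitm2, and Gm45717 had 0 UMIs in each library.

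Because both interferon routes act through short promoter sequences, the RefSeq promoters of the members (GRCm38.p6, 250 bases before to 50 bases after the annotated start) were searched on both strands for GAAA followed by any 2 bases and GAAA, of the response element type, and for TTCNNNGAA, of the gamma-activated site type. All 4 members had an entry. Of all 32851 promoters of this length, 3.44% held the first motif and 8.30% held the second. The matches are printed below 5' to 3' on the minus strand, with the matched letters in capitals and 6 bases on either side, to show that the members differ in which of the 2 motifs they hold.
Ifitm2, response element type, chr7:140955992-140956013: caacagGAAAAGGAAAttgcta
Ifitm3, response element type, chr7:141010727-141010748: attcagGAAAAGGAAActtctg
Ifitm3, response element type, chr7:141010710-141010731: ttctgaGAAACCGAAActgccg
Ifitm6, gamma-activated site type, chr7:141016888-141016908: atgaacTTCCTTGAAacaaga
The match of Ifitm2 began at position -46 from the annotated start, those of Ifitm3 at 2 and 19, and that of Ifitm6 at -10. Ifitm3 also held a TTCNNNGAA match at 13 that overlaps the match at 19. The window of Ifitm1 (chr7:140967826-140968125) held neither motif, and it starts inside the GENCODE gene because the RefSeq start is farther downstream. The same is true of the window of Ifitm6 (chr7:141016843-141017142). Its match at -10 therefore lies before the RefSeq start but inside the GENCODE gene. A match describes letters only, and absence from a 300-base window says nothing about binding elsewhere.

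Barcodes with at least 1000 UMIs and at most 30% mitochondrial UMIs were kept as cells, which left 5249 in the PBS library, 4879 in the 3-day WGP library and 4174 in the 7-day WGP library (14302 in all), with medians of 5755, 5754 and 8077 UMIs. Between 1 and 9 of these barcodes were shared by any pair of libraries. Cells were clustered with the 4 members left out, and clusters were named from marker lists into 13 classes, so that "T cells" below means T cell-like clusters, and so on; the thresholds of the naming were set after the clusters had been seen. Although the sort was for CD45+ cells, fibroblast-like, acinar-like and erythroid-like clusters were also present. Xist without a Y-linked transcript was found in 2039, 479 and 1208 cells and the reverse in 1736, 2510 and 1865, so the sex mix differed between libraries. Levels are counts per 1000000 UMIs (CPM) of the summed cells of a class, and free RNA was measured in barcodes of 1 to 100 UMIs.

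In free RNA each member was lowest in the PBS library and highest at 7 days. Ifitm1 stood at 33.2, 89.1 and 137 CPM in the free RNA of the PBS, 3-day WGP and 7-day WGP libraries, Ifitm2 at 302, 552 and 622 CPM, Ifitm3 at 944, 1522 and 1970 CPM, and Ifitm6 at 62.7, 91.3 and 110 CPM. Lyz2, the macrophage and neutrophil lysozyme, followed the same order at 4281, 7356 and 10488 CPM, whereas the complement gene C1qa went the other way at 1220, 824 and 647 CPM. B cells, a lymphoid class used as the background beside shares of cells with a UMI, held Ifitm3 at 33.5, 75.0 and 54.5 CPM. After each cell was thinned to 1000 UMIs, 1.54%, 1.19% and 3.29% of B cells had an Ifitm3 UMI.

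Ifitm1 was highest in neutrophils in each library, at 764, 1121 and 1578 CPM. Fibroblasts (77.8 CPM) and type 2 innate lymphoid cells (ILC2, 55.7 CPM) came next in the PBS library, with overlapping intervals. Their UMIs lay in only 11 and 4 cells. At 3 and 7 days cDCs took second place. Ifitm2 was led in the PBS library by fibroblasts (940 CPM) and neutrophils (870 CPM), whose intervals overlapped, followed by monocyte/macrophage cells (679 CPM) and cDCs (282 CPM). At 7 days the order for Ifitm2 was neutrophils (1529 CPM), monocyte/macrophage cells (1325 CPM) and then cDCs (1274 CPM) with fibroblasts (1214 CPM), which did not differ beyond their intervals.

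Ifitm3 had its highest levels in fibroblasts (2417 CPM) and monocyte/macrophage cells (2355 CPM) of the PBS library, which did not differ beyond counting error, then in neutrophils (1358 CPM) and cDCs (1108 CPM). At 7 days fibroblasts (4754 CPM from 31 cells, of which 5 held 50.7% of the UMIs) stood above monocyte/macrophage cells (4283 CPM). In turn cDCs (2776 CPM) stood above neutrophils (2006 CPM). Plasmacytoid DCs (283 CPM), γδ T cells (234 CPM), NK cells (222 CPM) and T cells (219 CPM) followed with overlapping intervals. Ifitm6 kept 1 order in the 3 libraries, with neutrophils first, then monocyte/macrophage cells and then cDCs, and most of the other classes could not be separated at this depth.

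**Figure D1:**
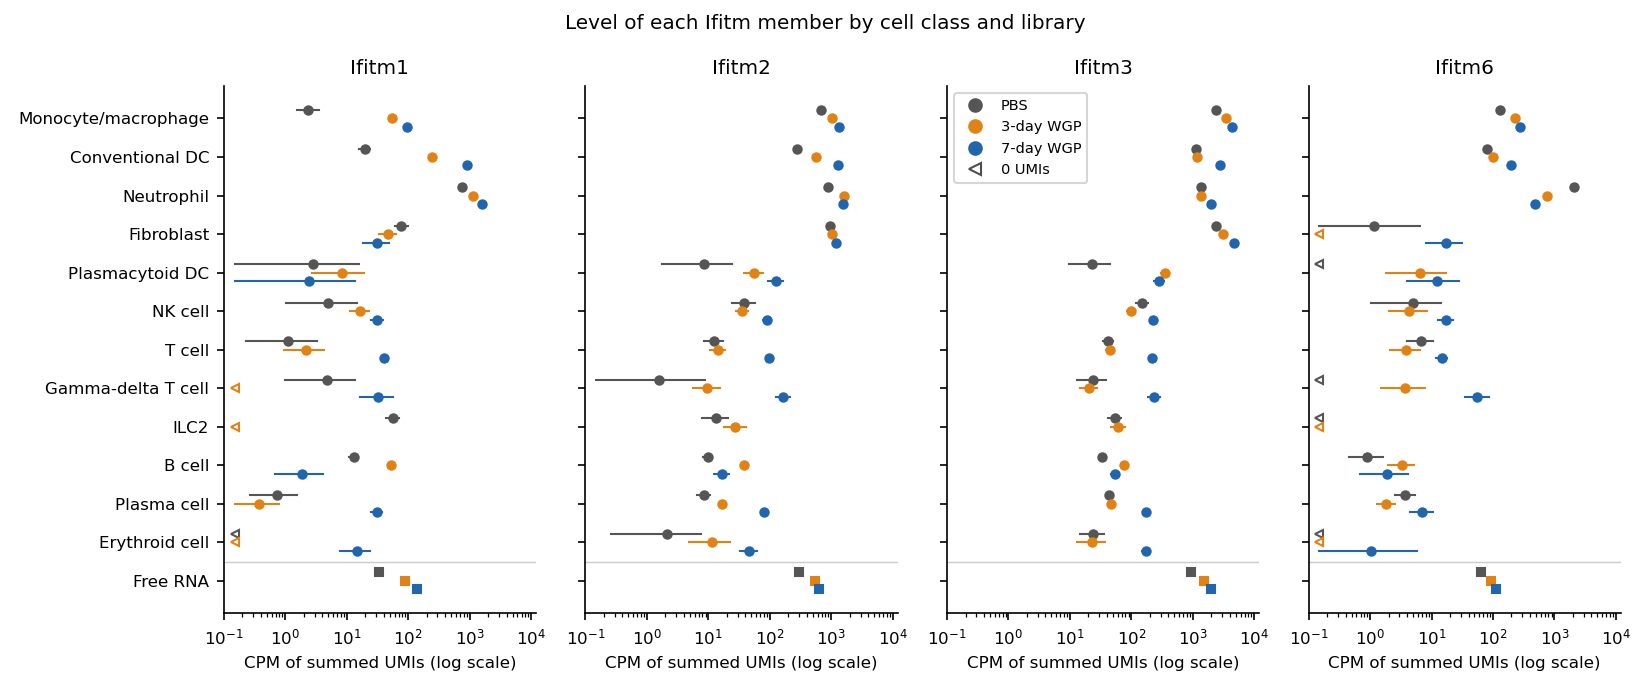
Level of each Ifitm member (CPM, log axis) by cell class in the PBS, 3-day WGP and 7-day WGP libraries, with exact Poisson 95% intervals of the UMI count; open triangles mark classes with 0 UMIs and squares mark free RNA. Neutrophils led for Ifitm1 (764, 1121 and 1578 CPM) and Ifitm6 in each library, and Ifitm1 in cDCs went from 19.6 to 907 CPM.

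Conventional DCs, which present antigen to T cells, had all 4 members at least 2-fold higher at 7 days, as were 4.31% of measured genes. Ifitm1 in cDCs stood at 19.6 CPM (95% interval 15.8 to 24.1, 305 cells) in the PBS library, 245 CPM (228 to 263, 256 cells) in the 3-day WGP library and 907 CPM (882 to 933, 366 cells) in the 7-day WGP library. None of the 3 intervals overlapped. The log2 ratio to PBS was 3.64 (3.33 to 3.97) at 3 days and 5.53 (5.23 to 5.85) at 7 days, the latter 46.3-fold, and the first of all measured genes of the class at both times (2923 and 3017 genes with at least 50 CPM in 1 of the 2 libraries). This contrast was the one used to choose the member, so its rank is no independent result. Ifitm1 also passed the 50 CPM filter only through the WGP libraries.

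The other members had smaller ratios in cDCs. Ifitm2 went from 282 CPM to 558 CPM at 3 days and 1274 CPM at 7 days, log2 ratios of 0.99 (0.88 to 1.09) and 2.18 (2.09 to 2.26). Ifitm3 was 1108, 1155 and 2776 CPM. Its log2 ratios were 0.06 (-0.00067 to 0.12) and 1.33 (1.28 to 1.37). At 3 days the interval of Ifitm3 thus held no difference, whereas at 7 days the level lay above both other libraries. Ifitm6 was 78.6, 99.2 and 196 CPM, and its log2 ratios were 0.34 (0.11 to 0.56) and 1.32 (1.14 to 1.49). At 3 days 1.44% of measured genes in cDCs were at least 2-fold higher, with 1 of the 4 members (Ifitm1) among them. By rank at 7 days Ifitm2 stood 29th, Ifitm3 79th and Ifitm6 81st of 3017.

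**Figure D2:**
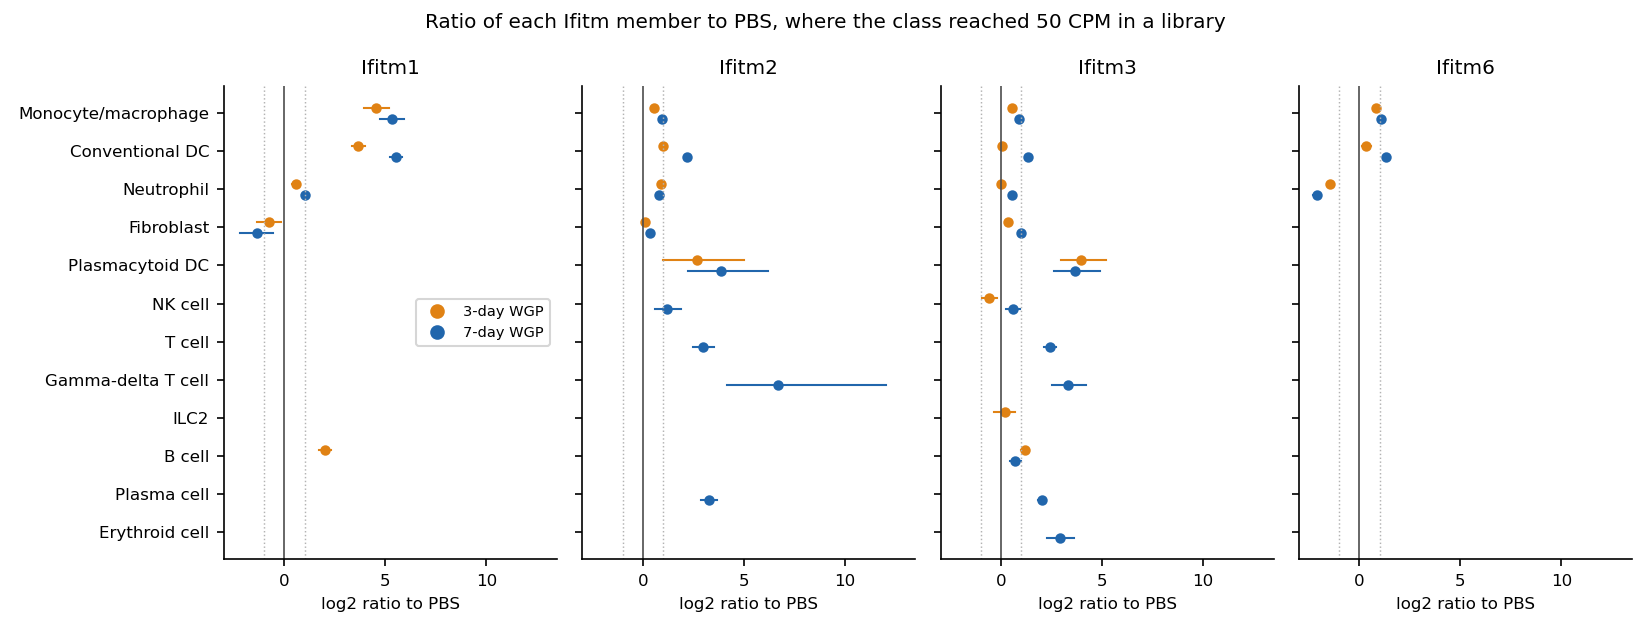
Log2 ratio of the level in 3-day WGP and 7-day WGP to PBS for each Ifitm member by class, drawn where the member reached 50 CPM in 1 of the 2 libraries, with 95% intervals for UMI counting; dotted lines mark 2-fold. In cDCs all 4 members lay past the upper line at 7 days, and in neutrophils Ifitm6 lay past the lower line (-1.47 and -2.11).

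Sub-clustering split the cDCs into type 1 cells, which cross-present antigen, 2 type 2 sub-clusters, which mainly serve CD4+ T cells, migratory Ccr7+ cells, and an unnamed mixed sub-cluster led by T and B cell genes (26, 51 and 24 cells). Type 1 cDCs (108, 102 and 98 cells) held Ifitm1 at 1.69, 10.7 and 186 CPM. The larger type 2 sub-cluster (127, 34 and 130 cells) held it at 42.6, 823 and 1769 CPM and the smaller (34, 38 and 85 cells) at 17.4, 575 and 1235 CPM. Ifitm1 was therefore highest in type 2 cells in each library, and at 7 days it was above PBS in each sub-cluster. Migratory cells (10, 31 and 29 cells) held 104 and 204 CPM after WGP, and none was counted in PBS, a limit of 25.2 CPM. The 2 type 2 sub-clusters held 59.3% and 25.9% of all cDC Ifitm1 UMIs at 7 days.

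Ifitm3 showed the same split by subset. It was 222, 371 and 716 CPM in type 1 cells, 1763, 2886 and 4459 CPM in the larger and 2713, 3570 and 4830 CPM in the smaller type 2 sub-cluster, and 235, 383 and 473 CPM in migratory cells. Within each of these 4 sub-clusters the 3-day value was above PBS, although the class as a whole stood at 1155 against 1108 CPM. The make-up of the class had shifted, with 34 of 256 cells in the larger type 2 sub-cluster at 3 days against 127 of 305 in PBS. For the mix below, each sub-cluster was weighted by its share of class UMIs, not of cells. When the PBS levels of the sub-clusters were weighted by the 3-day mix, the log2 change was -0.37 for Ifitm3 and -0.95 for Ifitm1; when the 3-day levels were weighted by the PBS mix, it was 0.59 and 4.36. At 7 days the mix alone gave -0.16 for Ifitm1, 0.13 for Ifitm2, 0.15 for Ifitm3 and 0.11 for Ifitm6, and the levels alone gave 5.58, 2.13, 1.28 and 1.21.

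In type 1 cDCs Ifitm2 was 86.0, 228 and 630 CPM, a log2 ratio of 2.87 (2.63 to 3.13) at 7 days, against 418, 1178 and 1750 CPM in the larger type 2 sub-cluster (2.07, 1.95 to 2.18). Ifitm6 in type 1 cells stayed at or under 35.1 CPM, whereas in the 2 type 2 sub-clusters it was 143, 303 and 291 CPM and 186, 302 and 410 CPM. The main cluster of the class was not the same in each library (cluster 12 in PBS and at 7 days, cluster 16 at 3 days), and levels of the 3-day cells are read with that in view.

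Ifitm1 in cDCs was spread over many cells at 7 days and over few at 3 days and in PBS. A UMI was found in 192 of 366 cells at 7 days, in 45 of 256 at 3 days and in 27 of 305 in PBS. In that order, 5 cells held 15.7%, 43.2% and 65.9% of the UMIs. A single PBS cell held 40 of the 91 UMIs there. After thinning, the share of cells with an Ifitm1 UMI was 1.97%, 10.2% and 29.2%, beside 0.102%, 0.475% and 0.387% of B cells; unthinned shares were 8.85%, 17.6% and 52.5% at median depths of 14282, 10381.5 and 12607.5 UMIs, beside 0.410%, 1.31% and 0.967% of B cells at 3836, 4226 and 4952. Of the 107 thinned 7-day cDCs with an Ifitm1 UMI, 94.4% also had an Ifitm3 UMI against 62.2% of those without, 85.0% against 47.1% had Ifitm2, and 31.8% against 10.4% had Ifitm6. The members thus tended to be found in the same cells, which here mostly means type 2 cells.

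The neutrophil list in cDCs, a class of genes from the richest source of Ifitm1, summed to 75.2, 81.8 and 64.8 CPM, with 2, 3 and 3 of its 10 markers at 0 and S100a8 at 4.52, 3.79 and 1.32 CPM. The macrophage list (12 genes) was 2347, 1483 and 2028 CPM beside 2344, 2291 and 2160 CPM for the 12 genes of the cDC list, so in PBS the macrophage list stood as high as that of the class. Per Lyz2 UMI, cDCs held 0.0162, 0.336 and 0.776 Ifitm1 UMIs, against 0.00776, 0.0121 and 0.0130 in free RNA. In neutrophils this ratio was 0.0798, 0.281 and 0.387. The part of RNA from other cells in the cDC result was not tested beyond these values. Without the mixed sub-cluster Ifitm1 was 21.2, 250 and 944 CPM (log2 5.48 at 7 days, 5.17 to 5.80). Among cells with Xist only the 7-day log2 ratio was 4.89, and among cells with Y-linked transcripts only it was 6.18.

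**Figure D3:**
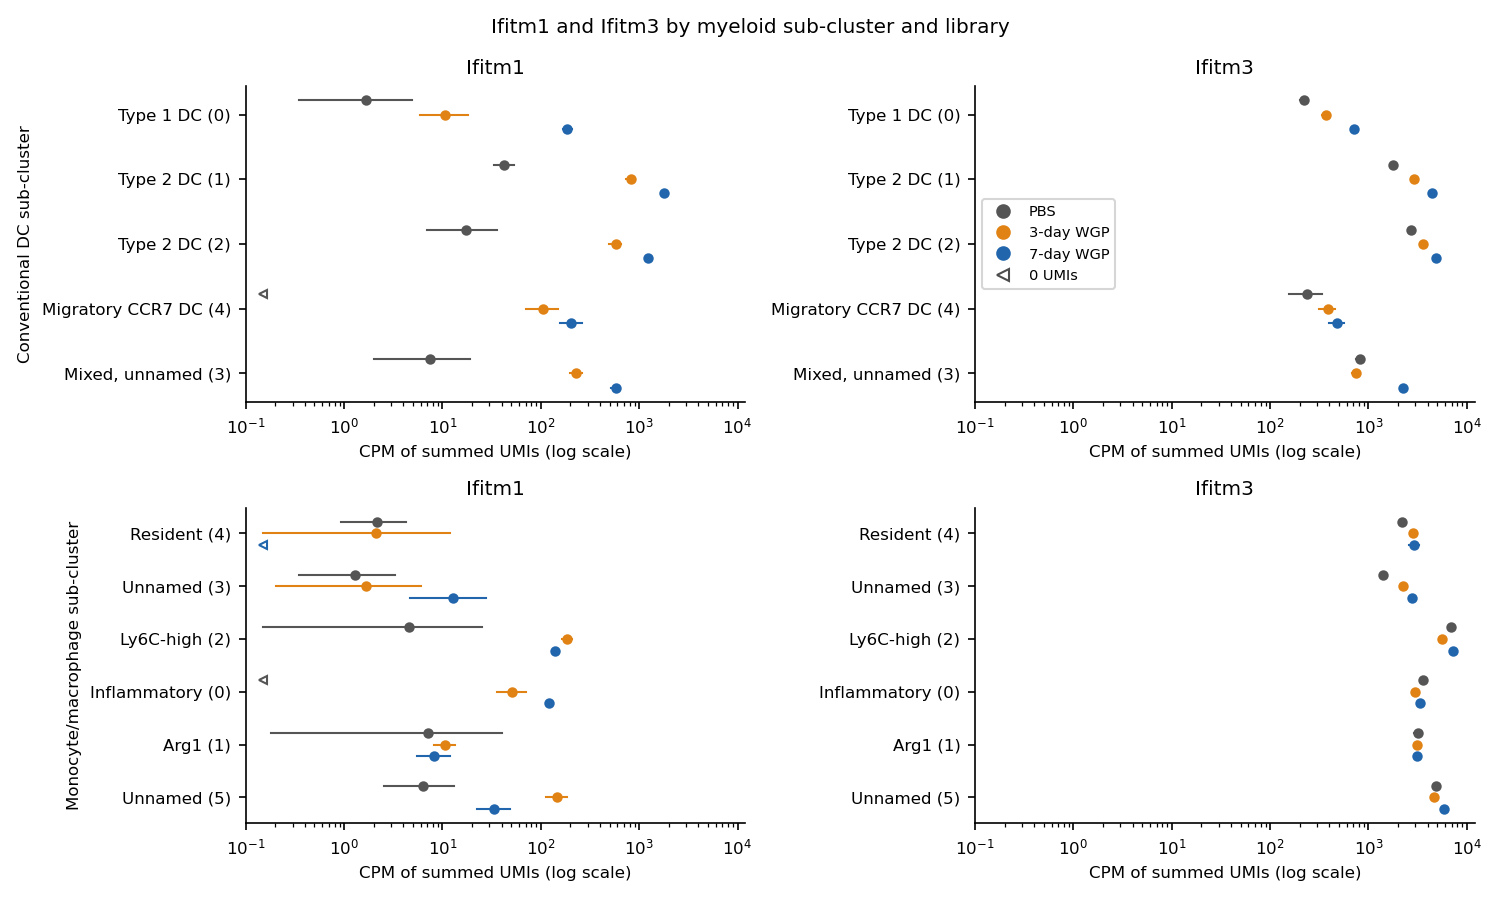
Levels of Ifitm1 and Ifitm3 (CPM, log axis) by sub-cluster of cDCs and of monocyte/macrophage cells in the 3 libraries, with exact Poisson 95% intervals. Type 2 cDCs lay above type 1 cDCs for both genes in each library, and Ly6C-high monocytes held the most Ifitm3 of the named sub-clusters (6881, 5633 and 7256 CPM).

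T cells carried little of any member in the PBS and 3-day WGP libraries. Ifitm3 was 41.4 CPM (95% interval 34.1 to 49.9, 545 cells) in PBS, 44.8 CPM (38.3 to 52.2, 639 cells) at 3 days and 219 CPM (207 to 231, 693 cells) at 7 days. The first pair of intervals overlapped and the 7-day level lay above both. The log2 ratio was 0.11 (-0.24 to 0.48) at 3 days and 2.40 (2.12 to 2.70) at 7 days, or 5.29-fold, in the contrast by which the gene was chosen. Ifitm2 was 12.3, 14.4 and 98.3 CPM (log2 3.00 at 7 days, 2.49 to 3.55), Ifitm1 was 1.12, 2.17 and 40.7 CPM (5.19, 3.62 to 7.47, from 3 UMIs in PBS), and Ifitm6 was 6.71, 3.80 and 14.6 CPM. Of the 2 members that reached 50 CPM, both were at least 2-fold higher at 7 days, as were 2.78% of measured genes. Both were under 50 CPM in PBS and were measured only through the 7-day library, so this count is partly set by the filter. By rank Ifitm2 stood 5th and Ifitm3 8th of 2916.

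Few cells carried these UMIs. At 7 days 110 of 693 T cells had an Ifitm3 UMI, and 5 cells held 43.3% of the UMIs; for Ifitm1, 17 cells had a UMI and 5 of them held 87.3%. The intervals above therefore cover the counting of UMIs and not which cells were sampled. The thinned share of T cells with an Ifitm3 UMI was 1.65%, 2.35% and 6.49%, beside 1.54%, 1.19% and 3.29% of B cells. Unthinned shares were 6.06%, 8.76% and 15.9% at medians of 3623, 5016 and 6364 UMIs, beside 5.89%, 7.96% and 11.03% of B cells.

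Most of the 7-day UMIs lay in 1 small sub-cluster. T cell sub-cluster 7, which was left unnamed because Lyz2, Cd74 and other antigen-presenting cell genes led it beside T cell genes, had 2, 8 and 20 cells, with a median of 22211 UMIs at 7 days. It held 1025 of the 1225 Ifitm3 UMIs of T cells at 7 days (83.7%), 93.0% of Ifitm1, 76.4% of Ifitm2 and 93.9% of Ifitm6. Its Ifitm3 level was 3352, 1447 and 2304 CPM, and was no lower in PBS than at 7 days. A further mixed sub-cluster with B cell genes brought the mixed cells to 12, 17 and 30, or 2.20%, 2.66% and 4.33% of the class.

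Without both mixed sub-clusters, an alternative chosen after seeing the data, Ifitm3 in T cells was 15.9, 21.0 and 39.3 CPM. The 7-day log2 ratio fell to 1.31 (0.82 to 1.83), still past 2-fold but under the 50 CPM set for a measured gene. Of the 196 Ifitm3 UMIs left at 7 days, 104 lay in the CD8 sub-cluster 3, and without that sub-cluster too (also chosen after seeing the data) Ifitm3 was 15.8, 23.3 and 21.9 CPM, a 7-day log2 ratio of 0.47 (-0.10 to 1.07) that was not past 2-fold. With every cell above the knee of the UMI curve (9852 UMIs) left out of all classes, it was 0.94 and no longer past 2-fold. Ifitm2 was 6.57, 7.65 and 24.5 CPM (log2 1.90, 1.16 to 2.72), whereas Ifitm1 was 2.27 and 2.61 CPM after WGP and was not counted in PBS, a limit of 1.16 CPM. Ifitm6 was 0, 0.851 and 1.003 CPM with the same limit in PBS. Leaving out sub-cluster 7 alone gave 15.4, 20.7 and 38.8 CPM for Ifitm3, and a thinned share of 1.29%, 1.58% and 4.16%.

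The macrophage list in T cells moved with Ifitm3, at 244, 318 and 829 CPM summed over 12 markers with 0, 1 and 0 of them undetected, while the T cell list held at 6085, 6309 and 6134 CPM. Lyz2 itself was 83.6, 150 and 511 CPM, and 1.83%, 6.26% and 12.4% of thinned T cells had a Lyz2 UMI. Per Lyz2 UMI, T cells held 0.496, 0.299 and 0.429 Ifitm3 UMIs, above the 0.221, 0.207 and 0.188 of free RNA in each library. In T cells with no UMI of Lyz2 or a C1q gene (461, 470 and 362 cells), Ifitm3 was 11.9, 11.2 and 42.6 CPM, a 7-day log2 ratio of 1.84. In those with such a UMI (84, 169 and 331 cells) it was 118, 102 and 360 CPM. The part of these RNAs in the T cell result was not tested beyond these values.

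By transcript, T cells with Cd4 and neither Cd8 gene (142, 153 and 195 cells) held Ifitm3 at 78.3, 28.1 and 390 CPM. Those with a Cd8 gene and no Cd4 (121, 184 and 232 cells) held it at 42.0, 37.2 and 56.4 CPM (log2 0.43 at 7 days, -0.15 to 1.04). Those with neither Cd4 nor a Cd8 gene (272, 278 and 252 cells) held it at 10.8, 68.1 and 97.5 CPM. Their log2 ratio was 2.66 (1.75 to 3.71) at 3 days and 3.17 (2.30 to 4.21) at 7 days. These splits include the cells of sub-cluster 7. T cells with Foxp3, the regulatory T cell factor (12, 21 and 61 cells), held 16.3, 26.3 and 796 CPM. However, the mixed cells had been parted from the regulatory T cell sub-cluster (11, 16 and 52 cells). That sub-cluster held 26.9 CPM at 3 days and 26.5 CPM at 7 days, and 0 UMIs in PBS. The CD8 sub-cluster led by Gzma, Gzmk and Ccl5 (52, 74 and 96 cells) held 16.4, 0 and 134 CPM, the highest 7-day level among sub-clusters not called mixed. Its 104 UMIs lay in 23 cells, and 5 of them held 63.5%.

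**Figure D4:**
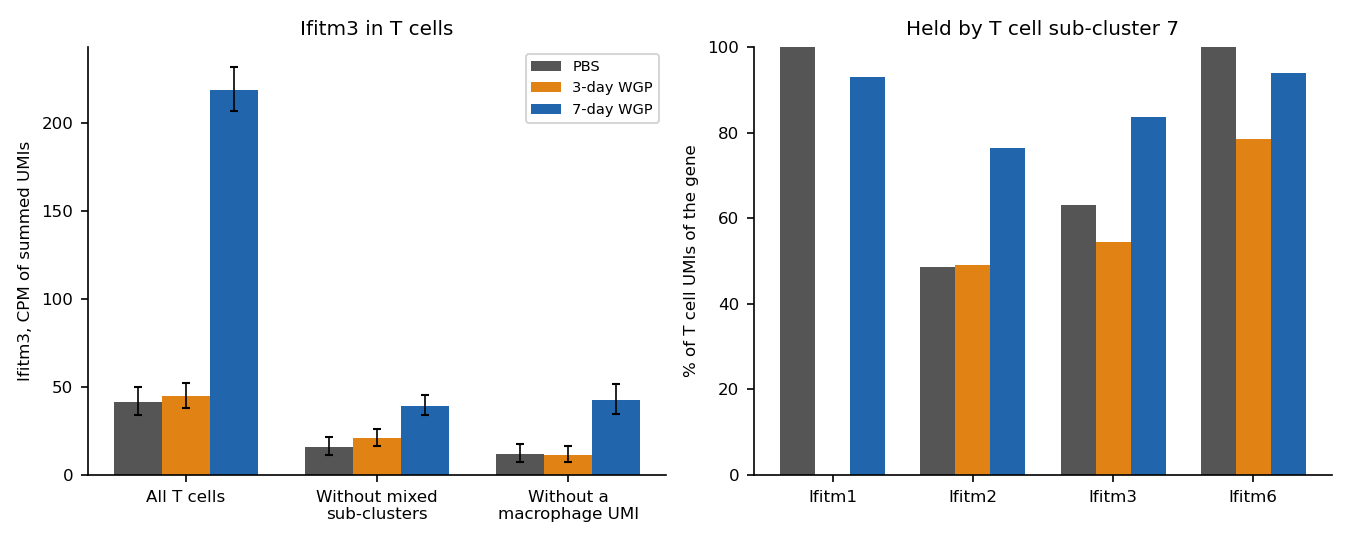
Left, Ifitm3 level (CPM, with 95% intervals) in the 3 libraries in all T cells, in T cells without the mixed sub-clusters and in T cells with no Lyz2 or C1q UMI; right, percent of the T cell UMIs of each member held by sub-cluster 7. The 7-day level went from 219 CPM in all T cells to 39.3 CPM without the mixed sub-clusters, and sub-cluster 7 held 83.7% of the Ifitm3 UMIs at 7 days.

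Monocyte/macrophage cells, which take up particles and present antigen, had each member lowest in PBS and highest at 7 days. Ifitm1 was 2.36 CPM (1.53 to 3.49, 931 cells) in PBS, 54.4 CPM (50.3 to 58.8, 802 cells) at 3 days and 94.1 CPM (89.6 to 98.8, 1480 cells) at 7 days, log2 ratios of 4.53 (3.95 to 5.16) and 5.32 (4.75 to 5.95). The free RNA part of Ifitm1 in PBS, estimated from acinar genes, was 3.13 CPM. Both ratios thus start from a level no higher than that background. Ifitm2 was 679, 1014 and 1325 CPM (0.58 and 0.96, the latter 0.93 to 1.002, and 1.23 with TMM factors), Ifitm3 2355, 3418 and 4283 CPM (0.54 and 0.86, 0.84 to 0.88), and Ifitm6 131, 230 and 272 CPM (0.81 and 1.05, 0.97 to 1.14). At least 2-fold higher were 1 of the 4 members at 3 days (Ifitm1) and 2 at 7 days (Ifitm1 and Ifitm6), where 6.93% and 8.38% of measured genes were. Ifitm1 was under 50 CPM in PBS and was measured only through the WGP libraries, so its calls were set by the filter. Ifitm1 ranked 8th of 3304 at 3 days and 5th of 3281 at 7 days, while Ifitm6, Ifitm2 and Ifitm3 ranked 259th, 289th and 328th at 7 days.

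After thinning, 75.9%, 86.0% and 90.5% of these cells had an Ifitm3 UMI, 45.3%, 53.2% and 65.3% an Ifitm2 UMI, 10.6%, 15.6% and 20.3% an Ifitm6 UMI and 0.322%, 3.12% and 5.14% an Ifitm1 UMI. Ifitm3 was thus found in most cells of the class and Ifitm1 in few. For Ifitm2 the B cell shares were 0.461%, 0.713% and 1.74%, and for Ifitm6 0.0512%, 0.238% and 0 of 517 cells, which allows up to 0.580%. The median depths of the class were 10307, 13960 and 10848.5 UMIs. S100a8, a neutrophil and monocyte gene, was 79.1, 337 and 78.8 CPM in the class.

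The sub-clusters that made up the class were exchanged between libraries. Resident macrophages went from 37.4% of the class in PBS to 6.86% and 0.743%, inflammatory macrophages from 1.83% to 6.61% and 46.9%, Ly6C-high monocytes from 2.79% to 17.2% and 25.5%, and Arg1 macrophages from 0.752% to 42.1% and 14.3%. The main cluster of the class accordingly differed in each library. Ifitm3 within the named sub-clusters stayed within 2-fold of PBS. It was 6881, 5633 and 7256 CPM in Ly6C-high monocytes (26, 138 and 378 cells), 3617, 2967 and 3372 CPM in inflammatory macrophages (17, 53 and 694 cells), 3218, 3114 and 3144 CPM in Arg1 macrophages (7, 338 and 212 cells) and 2216, 2861 and 2911 CPM in resident macrophages (348, 55 and 11 cells). In an unnamed sub-cluster (279, 108 and 48 cells) it was 1405, 2268 and 2798 CPM. The mix below again means shares of class UMIs, whereas the percentages above are of cells. With the PBS levels of the sub-clusters held and only their mix moved to that of 7 days, Ifitm3 changed by 0.81 on the log2 scale, close to the 0.86 observed; with the mix held and the levels moved it changed by 0.47.

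Ifitm1 went the other way. The 7-day mix alone gave 0.26, and the levels alone 2.75, of the 5.32 observed. Ly6C-high monocytes held Ifitm1 at 4.56, 185 and 141 CPM and inflammatory macrophages at 0, 50.9 and 121 CPM, where 0 UMIs in 17 PBS cells allows up to 13.01 CPM. Arg1 macrophages stayed at 7.22, 10.6 and 8.26 CPM and resident macrophages at 2.16, 2.12 and 0 CPM (the last allowing 33.2 CPM in 11 cells), and at 7 days the inflammatory cells held 58.7% of the Ifitm1 UMIs of the class and the Ly6C-high monocytes 33.6%. At 3 days the Ly6C-high monocytes held 51.4% and the inflammatory cells 5.49%, fewer than Arg1 macrophages (10.1%), an unnamed sub-cluster led by Elane, Prtn3 and Plac8 (9.76%) and a mixed sub-cluster led by S100a9, S100a8 and T cell genes (22.7%, from 31 cells at 301 CPM). For Ifitm2 the mix gave 0.35 and the levels 0.36, and for Ifitm6 0.81 and 0.61. Ifitm6 was highest among the named sub-clusters in Ly6C-high monocytes, at 428, 560 and 604 CPM, and Ifitm2 likewise at 1349, 2081 and 2233 CPM.

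Neutrophils, short-lived phagocytes of the innate response, were 91, 242 and 195 cells. Ifitm1 was 764, 1121 and 1578 CPM, log2 ratios of 0.55 (0.40 to 0.71) and 1.05 (0.89 to 1.21), and Ifitm6 was 2078, 750 and 480 CPM, -1.47 (-1.59 to -1.35) and -2.11 (-2.30 to -1.93). Ifitm2 was 870, 1638 and 1529 CPM (0.91 and 0.81), and Ifitm3 1358, 1362 and 2006 CPM (0.0046 and 0.56). Ifitm6 was therefore lower after WGP here and higher in cDCs and monocyte/macrophage cells. At 7 days 23.2% of measured neutrophil genes were at least 2-fold higher, among them Ifitm1 of the 4 members, and 6.33% were at least 2-fold lower, among them Ifitm6; at 3 days 6.39% were lower, again with Ifitm6. The median of all measured genes stood at 0.44 at 3 days and 0.35 at 7 days. CPM values of a class sum to a fixed total, and the neutrophil list of 10 markers stood at 274320, 102934 and 105561 CPM. The part of that fall in the medians and in the member ratios was not tested.

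The class was made of 2 clusters whose shares changed. Cluster 24, led by the granule genes Ngp, Camp and Ltf that immature neutrophils carry, had 36, 13 and 6 cells (medians of 9793.5, 21097 and 16322 UMIs) and held Ifitm6 at 2727, 2906 and 1808 CPM and Ifitm1 at 33.4, 43.4 and 17.6 CPM. Cluster 14 made up 60.4%, 94.6% and 96.9% of the cells of the class. It held 164076, 984674 and 540701 of the class UMIs, against 449511, 230536 and 113387 in cluster 24. Class levels are sums of UMIs, so cluster 24 weighed most in PBS. In cluster 14 Ifitm1 was 2767, 1373 and 1905 CPM, lower than PBS at both times (log2 -1.01, and -0.54 at 7 days, -0.70 to -0.38). Within cluster 14 Ifitm6 was 299, 246 and 202 CPM (-0.57, -1.07 to -0.05), Ifitm2 was 2249, 1905 and 1698 CPM (-0.41), and Ifitm3 was 2023, 1335 and 2071 CPM (0.03). The direction of Ifitm1 thus reversed within the cluster, an alternative chosen after seeing the data. The change of mix alone, by shares of class UMIs, gave 1.59 for Ifitm1 and -1.53 for Ifitm6 at 7 days. The levels alone gave -0.55 and -0.59.

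**Figure D5:**
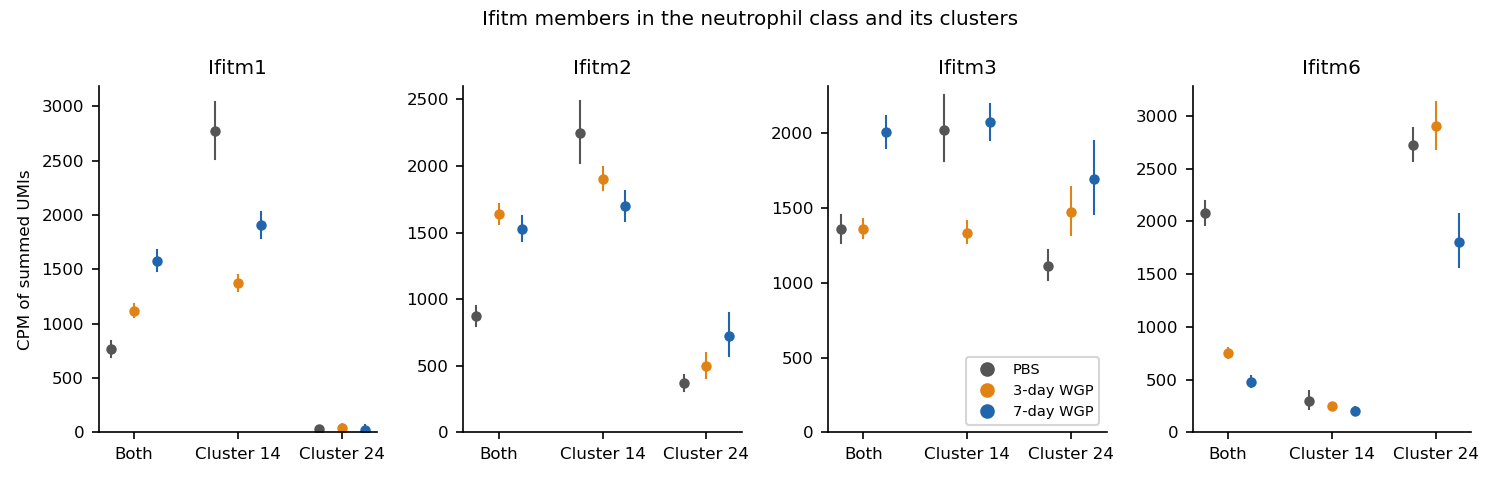
Levels of the 4 Ifitm members (CPM, linear axis from 0) in all neutrophils, in cluster 14 and in the immature cluster 24 of the 3 libraries, with exact Poisson 95% intervals. Ifitm1 was higher in the class (764 to 1578 CPM) but was lower than PBS within cluster 14 (2767 to 1905 CPM), and Ifitm6 lay mainly in cluster 24.

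In the remaining classes the levels often rested on few cells. Members under 50 CPM in PBS were again measured only through a WGP library. NK cells held Ifitm3 at 149, 98.5 and 222 CPM and Ifitm2 at 38.1, 35.4 and 88.6 CPM (log2 1.22 at 7 days, where 2.07% of genes were at least 2-fold higher), and 5 cells held 87.2% of the Ifitm3 UMIs at 3 days and 67.1% at 7 days. Plasmacytoid DCs, the main makers of type I interferon, held Ifitm3 at 22.6, 351 and 283 CPM (3.96 and 3.65, backgrounds 2.74% and 5.27%), with 92.5% and 96.6% of the UMIs in 5 cells after WGP and a 7-day ratio of at most -0.57 among cells under the knee. Plasma cells held Ifitm2 at 8.44, 16.6 and 81.8 CPM (3.28) and Ifitm3 at 42.9, 46.8 and 176 CPM (2.03), where 1.73% of genes were at least 2-fold higher, the median of all genes was -0.55 and 5 of 85 cells held 87.5% of the Ifitm2 UMIs.

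The γδ T cells showed how far a single cell could carry a level. Ifitm2 was 1.58, 9.64 and 165 CPM and Ifitm3 23.7, 20.4 and 234 CPM, but all 62 Ifitm2 UMIs and 85 of the 88 Ifitm3 UMIs of the 63 cells at 7 days lay in 1 cell each, and the ratio of Ifitm3 went from 3.30 to -1.63 once the cells with the top doublet scores were removed. In that contrast 5.24% of genes were at least 2-fold higher. Ifitm1 in B cells was 12.9, 52.1 and 1.87 CPM (2.01 at 3 days, background 1.54%), with 97.9% of the 3-day UMIs in 5 cells and a ratio of -0.36 under the knee. Erythroid cells held Ifitm3 at 23.4, 22.5 and 176 CPM, in a contrast in which 78.8% of all measured genes were at least 2-fold higher. The median of all measured genes was 1.96 in the erythroid contrast and -0.0047 to 0.067 in those of B cells, NK cells, γδ T cells and plasmacytoid DCs at 7 days. Levels that rest on so few cells were not read as a class response.

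In fibroblasts and ILC2 Ifitm1 was lower at 3 days than in PBS, but its UMIs lay in few cells. These Ifitm1 levels were not read as a class response. Fibroblasts (81, 51 and 31 cells) held Ifitm1 at 77.8, 46.6 and 30.8 CPM, log2 -0.74 (-1.34 to -0.16) and -1.34 (-2.18 to -0.57), at least 2-fold lower at 7 days as were 11.2% of genes. Only 11, 10 and 8 of them had an Ifitm1 UMI, and 5 cells held 73.1%, 87.8% and 83.3% of the UMIs. Ifitm3 in fibroblasts was 2417, 3084 and 4754 CPM (0.35 and 0.98) and Ifitm2 was 940, 1013 and 1214 CPM. The main fibroblast cluster was 20 in PBS and at 7 days and 23 at 3 days. In the 289 ILC2 of the PBS library Ifitm1 was 55.7 CPM from 76 UMIs in 4 cells (1.38%), and 1 cell held 53 of them. The 287 ILC2 of the 3-day library had 0 UMIs, which allows up to 3.32 CPM and makes the level at most 0.0595 of that in PBS. In that contrast 1.86% of genes were at least 2-fold lower. With 11 cells at 7 days, 0 UMIs allows up to 31.1 CPM, and no comparison was made. Acinar cells numbered fewer than 20 in each library and were not compared.

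Genes of the interferon pathway were counted in the same way, from lists chosen with these results known. Interferon-γ-induced genes at least 2-fold higher at 7 days numbered 12 of 19 measured in cDCs (median log2 1.96), 10 of 16 in T cells (1.504), 17 of 21 in monocyte/macrophage cells (2.30) and 16 of 19 in neutrophils (3.68), beside 4.31%, 2.78%, 8.38% and 23.2% of all measured genes. In cDCs they included Iigp1, an immunity-related GTPase (6.03 to 153 CPM, 4.67), the chemokine Cxcl10 (25.2 to 408 CPM, 4.02) and the guanylate-binding protein Gbp5 (5.38 to 75.9 CPM, 3.82). Each of these was under 50 CPM in PBS and was measured only through the 7-day library. The counts of the list are therefore partly set by the filter. In T cells the largest ratios were those of Cxcl9 (0.746 to 69.7 CPM, 6.55, from 2 UMIs in PBS), Cxcl10 (10.1 to 165 CPM, 4.03) and H2-Ab1 (57.8 to 284 CPM, 2.30), genes that antigen-presenting cells express. These T cell counts include sub-cluster 7, and without the mixed sub-clusters, a count added after seeing the data, 5 of 12 measured genes passed in T cells (median 0.82, beside 2.25% of all genes) and 12 of 19 in cDCs (2.16, beside 4.24%). At 3 days 1 of 9 in cDCs, 0 of 11 in T cells and 4 of 14 in monocyte/macrophage cells had passed, beside 1.44%, 0.253% and 6.93% of all genes. The make-up of monocyte/macrophage cells and of neutrophils changed between libraries. Their counts for this list and those below were not repeated within clusters, and are not read as a response of like cells.

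Type I interferon-stimulated genes at least 2-fold higher numbered 5 of 12 measured in cDCs (median 0.74), 0 of 9 in T cells (0.51), 2 of 15 in monocyte/macrophage cells (0.30) and 16 of 21 in neutrophils (1.81), beside the same 4.31%, 2.78%, 8.38% and 23.2% of all genes. In cDCs the nucleic acid sensor Zbp1 (37.7 to 166 CPM, 2.14), the ubiquitin-like modifier Isg15 (51.0 to 184 CPM, 1.85) and Oasl2 (20.03 to 62.5 CPM, 1.64) led. Of these, Zbp1 and Oasl2 were under 50 CPM in PBS, so the filter partly set this count too. In T cells Zbp1 (67.9 to 125 CPM, 0.87), Parp14 (69.4 to 101 CPM, 0.55) and Ly6e (747 to 1087 CPM, 0.54) had the largest ratios without passing. The difference between the lists was not tested, and the median of all genes lay near 0 in cDCs, T cells and monocyte/macrophage cells but at 0.35 in neutrophils.

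Among receptors and signalling genes, 6 of 14 were at least 2-fold higher in cDCs, 3 of 10 in T cells and 5 of 13 in monocyte/macrophage cells, beside 4.31%, 2.78% and 8.38% of all genes. Without the mixed sub-clusters the counts were again 6 of 14 in cDCs and 3 of 10 in T cells. Socs1, a feedback inhibitor of interferon signalling (10.3 to 63.3 CPM, 2.61), and the transcription factor Irf1 (44.8 to 213 CPM, 2.25) were among those in cDCs, and Socs1 (54.1 to 113 CPM, 1.06) and Irf1 (86.5 to 177 CPM, 1.03) were among those in T cells. In cDCs both genes were under 50 CPM in PBS and were measured only through the 7-day library. Of the 10 ligands only Ifng was measured in T cells, at 98.1 CPM in PBS and 328 CPM at 7 days (1.74, 1.55 to 1.93). Of the partners of virus entry and membrane fusion, 0 of 8 in cDCs, 1 of 5 in T cells (Lamp2, a lysosomal membrane protein, 26.1 to 55.9 CPM, 1.10) and 0 of 9 in monocyte/macrophage cells were 2-fold higher; without the mixed sub-clusters it was 0 of 4 in T cells. In cDCs the tetraspanins Cd81 (103 to 56.3 CPM, -0.87) and Cd9 (225 to 132 CPM, -0.77) and Lamp2 (95.4 to 171 CPM, 0.84) had the largest ratios of that list.

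Across the 35 sums of a class in a library with at least 20 cells, the log2 level of Ifitm2 was most like that of Ifitm3 (Pearson r 0.977), followed by Ifi204 (0.929), Rab32 (0.916), Emilin2 (0.913) and Ralb (0.906). Ifitm3 was in turn followed by Ifi204 (0.938), App (0.928), Ifi207 (0.917) and Itpripl2 (0.911). Ifitm1 had no such close partner, with Il1b (0.850), Gca (0.830), Trpm2 (0.827), Il1r2 (0.826) and Mapk13 (0.822) first, and its r was 0.758 with Ifitm2 and 0.663 with Ifitm3. Ifitm6 was most like Mcemp1 (0.973), Gm34084 (0.943), Igsf6 (0.940), Trpm2 (0.937) and Hk3 (0.935). These values are over 6739 genes and describe 3 libraries whose classes share depth and free RNA.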

How the data were processed

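Live CD45+ pancreatic cells were profiled by 10x 3' scRNA-Seq in 3 libraries (PBS, 3-day WGP, 7-day WGP), grouped by their labels. The deposited files hold raw UMI counts per gene and barcode, made by the authors with Cell Ranger 3.1.0 on mm10; Seurat is also named in the submitters' processing notes. Totals were 52464690, 56849043 and 48219246 UMIs, and 0 columns of values were left unused. The members and gene lists were chosen with earlier results of these data known.

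Barcodes with at least 1000 UMIs and at most 30% mitochondrial UMIs were kept, normalised with sctransform 0.4.2 and clustered in Seurat 5.3.0 (R 4.3.3; 3000 variable genes without the members, 30 principal components, resolution 0.8, 0.4 for sub-clusters). Cluster names came from marker lists. Scrublet's automatic threshold (scanpy 1.11.5) marked 0, 0 and 2 cells and so did not work; all cells were kept, and removal of the top 220, 190 and 139 scores was an alternative. UMIs were summed per class and library and divided by the class total (Python 3.11.15, numpy 2.4.6, scipy 1.17.1, pandas 2.3.3; figures with matplotlib 3.10.9; transcripts aligned with edlib 1.3.9.post1). Ratios have exact conditional binomial, levels exact Poisson and shares Clopper-Pearson 95% intervals, which cover counting error only; a count of 0 was given a limit of 3 UMIs. A gene was measured at 50 CPM in 1 of the 2 libraries and called at 2-fold. A gene under 50 CPM in PBS was thus measured only if it reached that level after WGP. With 1 library per group no test was made. Scripts were tested on simulated data. Named besides the members are, per member, the 5 genes of highest Pearson r over log2(CPM + 10) and, per interferon list, the 3 measured genes of largest log2 ratio at 7 days in cDCs and in T cells, with Lyz2 and C1qa as free RNA; 1 gene that this rule names is not reported here. S100a8, Cd4, Foxp3 and the leading genes of sub-clusters were named after their values were seen.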

Additional observations from a re-analysis of the deposited data

Results flagged for a closer look

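Ifitm6 moved in opposite directions in 2 myeloid classes at 7 days, with a log2 ratio to PBS of 1.32 in conventional DCs and -2.11 in neutrophils. The difference was not tested, since each group is 1 library. Within neutrophil cluster 14 alone the ratio was -0.57, and cluster 24, which held most of the Ifitm6 of the PBS neutrophils, went from 36 to 6 cells.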

How the results depend on the processing

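Over 47 log2 ratios and 578 alternatives, 384 values moved by less than their counting interval, 187 moved by more and 7 reversed. The first of the 4 leading ratios, Ifitm1 in conventional DCs at 7 days (5.53), was 4.73 with cells above the knee of the UMI curve (9852 UMIs) left out, 7.22 with log-normalised clustering, 6.87 at resolution 0.4, 4.95 with a pseudocount of 10 CPM, 4.89 in Xist cells and 6.18 in chromosome Y cells. Ifitm3 in T cells (2.40) was 0.94 under the knee, 1.51 with log-normalised clustering, 1.96 as the mean of per-cell CPM, 1.57 in chromosome Y cells, 1.84 without cells with a macrophage UMI and, in alternatives chosen after seeing the data, 1.31 without the mixed sub-clusters and 0.47 without these and CD8 sub-cluster 3. Ifitm2 in monocyte/macrophage cells (0.96) was 0.90 with top doublet scores removed, 1.01 under the knee, 0.85 with log-normalised clustering, 0.89 at resolution 0.4, 1.23 with TMM factors and 1.02 with free RNA subtracted. Ifitm6 there (1.05) was 1.16 under the knee, 1.22 with log-normalised clustering, 1.198 at resolution 0.4, 1.32 with TMM factors and 1.18 in Xist cells. All 4 kept their direction under each of their 15, 17, 14 and 14 alternatives. Reversed were Ifitm1 in neutrophils at 7 days (-0.0020 under the knee, -0.54 without the immature cluster, the latter chosen after seeing the data), Ifitm1 in B cells at 3 days (-0.36 under the knee, -0.45 with log-normalised clustering), Ifitm3 in plasmacytoid DCs at 7 days (at most -0.57 under the knee) and Ifitm3 in γδ T cells at 7 days (-1.63 with top doublet scores removed, -0.74 under the knee). These settings leave out cells or regroup them; which cells account for each reversal was not tested, except where a cluster is named. Of 84 list counts 56 stayed within 1.5 times, and 24 ratios could not be given under an alternative. No paired analysis was possible because each group is 1 library, and for the same reason no replicate could be left out. Depth limits the shallow classes most: a class with 0 UMIs of a member can still hold it up to the limits given.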
